A study of Rattus norvegicus with 4 samples.

Results

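The 4 Hox clusters (HoxA, HoxB, HoxC and HoxD) were followed in the developing rat carotid body (CB), a small sensory organ where the carotid artery divides, in which glomus cells detect low oxygen. The members are every entry of the gene table whose symbol is a letter-and-number Hox name, which gave 43 entries for 37 symbols, out of 32883 entries in all. HoxA had 9 symbols, HoxB 10, HoxC 9 and HoxD 9. RefSeq lists 39 such symbols in the rat, and Hoxa5 and Hoxa6, which are not among these rows, were not analysed here. RNA was sequenced from CBs of Sprague Dawley rats, neonates at day 5 and adults at day 21, with 2 libraries per age and 4 in all. According to the labels each neonatal library pooled the CBs of 6 pups and each adult library those of 3 rats at weaning age, with no treatment or genetic change named, while the paper's methods give other pool sizes. The values are the authors' estimated read counts per gene, and they summed to between 36286191 and 39476110 per library.

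Hox genes encode homeodomain transcription factors that give cells along the head-to-tail axis their positional identity. Within a cluster, genes with low paralog numbers are switched on earlier and further toward the head, and genes with high numbers act in the trunk, the limbs and the tail. The CB forms beside the artery of the third pharyngeal arch, from neural crest of a region where paralogs of groups 2 and 3 are active, and in mice Hoxa3 is needed for a CB to form. Hox proteins bind DNA together with TALE cofactors (the PBX, MEIS and PKNOX families), retinoic acid acts on the clusters from upstream, and Polycomb and trithorax proteins keep the clusters silent or active through cell division.

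Levels are given as CPM, that is, reads scaled by the library total and the library's TMM factor, a scaling that sets most genes level between libraries. CPM are not divided by transcript length, so a level is compared between ages for 1 gene and not between genes. Entries that reached 1 CPM in 2 or more libraries were tested with edgeR's quasi-likelihood test, and p-values were Benjamini-Hochberg adjusted over all 13843 genes tested. A gene is said to rise or fall at an adjusted p under 0.05, and a log2 fold change is neonate over adult, so that positive values are higher in neonates. A floor of 3 counts, which covers counting error only, lay between 0.0736 and 0.0844 CPM per library. The p-values measure the spread between 2 pools per age, and in whole organs fewer cells of a type and less RNA per cell cannot be told apart.

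Most Hox symbols over the filter had paralog numbers 2 to 5. Of the 14 symbols with paralog numbers 1 to 5, 9 passed the filter (0 of 3 in group 1), against 1 of 7 with numbers 6 to 8, 1 of 7 with numbers 9 and 10, and 0 of 9 with numbers 11 to 13. In all, 11 symbols (12 entries, 27.9% of the 43) were tested, 9 symbols were under the filter but over 3 counts in some library, 3 never exceeded 3 counts, and 14 had no counts in any library. The 14 symbols at 0 were Hoxa7, Hoxa9, Hoxa10, Hoxa11, Hoxa13, Hoxb1, Hoxb13, Hoxc9, Hoxc10, Hoxc11, Hoxc12, Hoxc13, Hoxd11 and Hoxd12, which leaves each of them under the floor of 3 counts in every library. When detection was instead set at more than 3 counts in every library, 13 symbols were detected, Hoxa4 and Hoxb7 being the additional ones. The symbols over the filter were thus of paralog groups 2 to 5, together with Hoxd8 and Hoxd9.

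**Figure D1:**
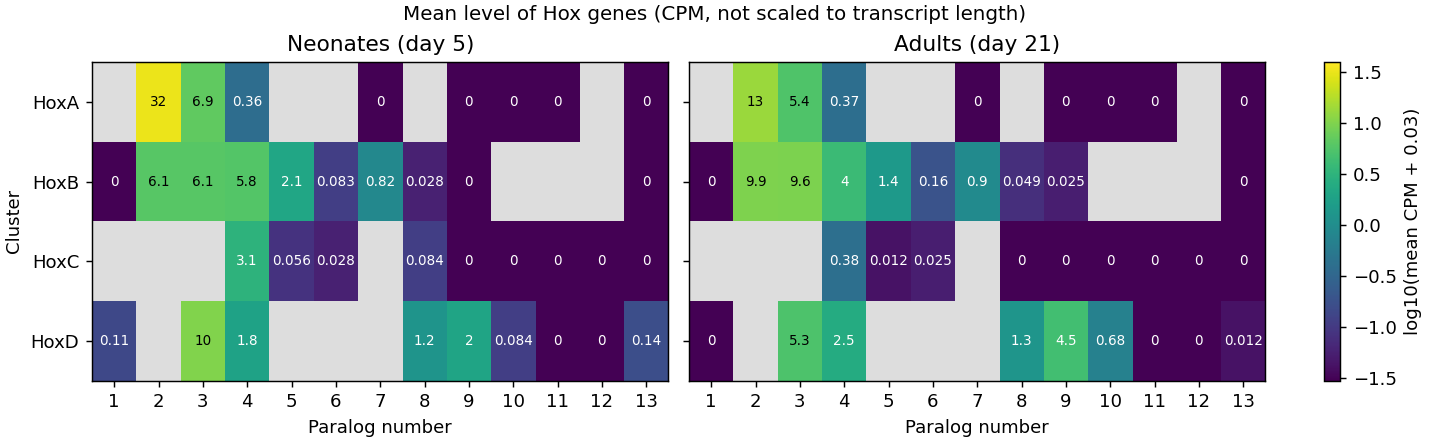
Mean level of Hox symbols in CPM over the 2 neonatal libraries (left) and the 2 adult libraries (right), with clusters as rows and paralog number as columns; colour is log10 of CPM + 0.03, each cell prints the mean from rounded counts, and grey marks a position with no symbol among the rows or not reported here. Values over 1 CPM lie in paralog columns 2 to 5, 8 and 9, and 8 of the 9 symbols in columns 11 to 13 are at 0 in both ages.

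Among the 12 entries tested, 3 rose in neonates (Hoxa2, Hoxc4 and Hoxd3) and 3 fell (Hoxb2, Hoxb3 and Hoxd9), while 6 did not pass the test. That is 25.0% in each direction, beside 31.2% of all genes tested called higher and 31.1% called lower, so the share of Hox entries called was not above the background. Scaling by library size alone changed no Hox call but moved the calls over all genes from 4325 higher and 4300 lower to 2588 and 5997. Of the 6, Hoxa2 and Hoxc4 were also at least 2-fold higher and Hoxd9 was at least 2-fold lower, beside 7.68% and 13.2% of all genes. The median log2 fold change of the entries tested was 0.41, against -0.0029 for all genes tested, and the median size of the change without its sign was 0.63 against 0.49. These medians are descriptions, since Hoxc4 passed the filter only through the neonates. Changes in both directions occurred inside HoxD, and the 2 members of paralog group 2 moved in opposite directions.

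**Figure D2:**
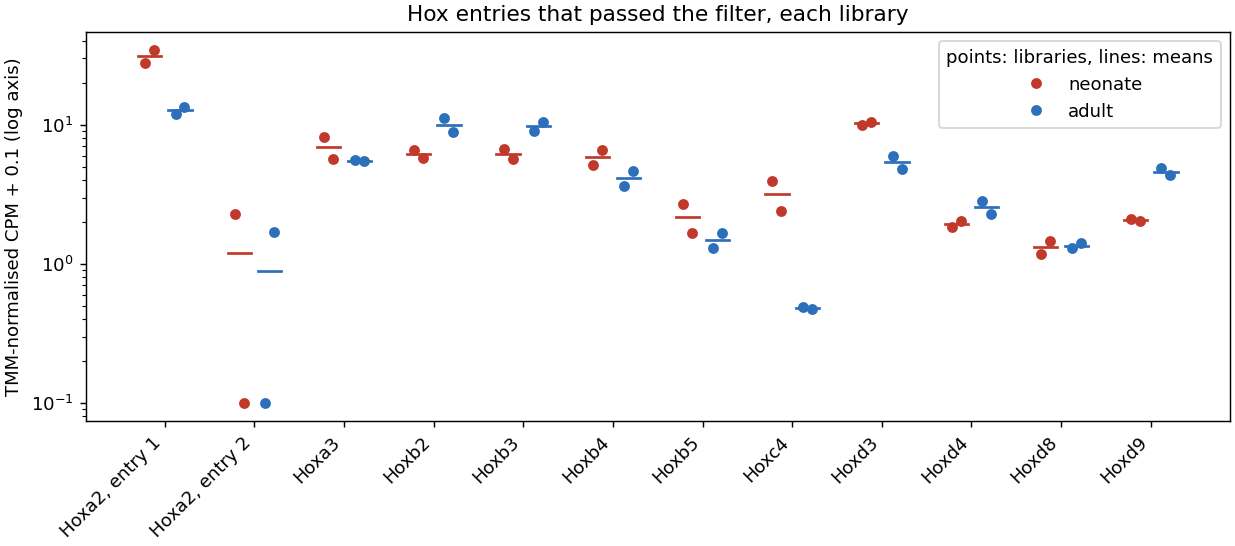
CPM + 0.1 on a log axis for each Hox entry that passed the filter, with 1 point per library (red neonates, blue adults) and a line at the mean of the 2 libraries of an age. The ages do not overlap for the 6 entries that passed the test, with Hoxa2 at 27.6 and 34.5 CPM in neonates above 11.8 and 13.4 CPM in adults.

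Hoxa2, which patterns the second pharyngeal arch and the hindbrain, rose in neonates. Its main entry (ENSRNOG00000005968) stood at 27.6 and 34.5 CPM in the neonatal libraries and at 11.8 and 13.4 CPM in the adult libraries. Both neonatal values were more than 2-fold above both adult values, and the log2 fold change was 1.30 ± 0.14 (SE, 2 libraries per age, edgeR adjusted p = 6.6e-05), or 2.46-fold. A second entry of the same symbol (ENSRNOG00000059600) received reads only in neonate 1 (2.19 CPM) and adult 2 (1.59 CPM) and had 0 in the other two libraries. Its log2 fold change of 0.47 ± 1.45 (edgeR adjusted p = 0.79) is uncertain, because the estimated counts of both entries were fractional in the same libraries, as happens when reads are divided between near-identical copies. With both entries summed, Hoxa2 stood at 29.8 and 34.5 CPM in neonates and at 11.8 and 15.0 CPM in adults, and the log2 fold change was 1.26 ± 0.14 (edgeR adjusted p = 8.4e-05).

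Hoxc4, the most anterior gene of HoxC and a regulator of vertebral and oesophageal development, also rose in neonates. Its estimated counts were 137 and 83 in neonates and 16 and 15 in adults, which is 3.85, 2.31, 0.392 and 0.378 CPM. The neonatal pair lay further apart than the adult pair, and both lay above the adults. The log2 fold change was 2.99 ± 0.43 (edgeR adjusted p = 0.00034), or 7.94-fold, and since the gene passed the filter only through the neonates, it had to differ. In RefSeq's annotation of the assembly GRCr8, the span of Hoxc6 overlaps those of Hoxc4 and Hoxc5, so reads of these genes may be divided between them by the counting. Hoxc5 (0 and 4 counts in neonates, 1 and 0 in adults) and Hoxc6 (2 and 0, then 2 and 0) were at or near the floor, so that Hoxc4 made up nearly all of the HoxC reads.

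Hoxd3, which shapes the first neck vertebrae, stood at 9.93 and 10.5 CPM in neonates and at 5.88 and 4.68 CPM in adults. The ages did not overlap, and Hoxd3 rose by 0.95 ± 0.21 on the log2 scale (edgeR adjusted p = 0.0037), or 1.93-fold. Hoxd9, a gene of limb and lumbosacral patterning that lies further along the same cluster, went the other way. It stood at 1.997 and 1.92 CPM in neonates and at 4.78 and 4.23 CPM in adults, with a log2 fold change of -1.20 ± 0.28 (edgeR adjusted p = 0.0049), or 2.30-fold higher in adults. Each adult library held more than 2 times the Hoxd9 level of each neonatal library.

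Hoxb2 and Hoxb3 fell in neonates by smaller amounts. Hoxb2, a hindbrain gene needed for the facial motor nerve, stood at 6.47 and 5.70 CPM in neonates and at 11.2 and 8.73 CPM in adults (log2 fold change -0.71 ± 0.21, edgeR adjusted p = 0.016, 1.63-fold). Hoxb3, a paralog of Hoxa3 that acts with it in the neck, stood at 6.58 and 5.59 CPM in neonates and at 8.90 and 10.4 CPM in adults (log2 fold change -0.66 ± 0.21, edgeR adjusted p = 0.019, 1.58-fold). For both genes the ages did not overlap. These were the least stable of the 6 calls: without adult replicate 1 Hoxb2 was at -0.55 (edgeR adjusted p = 0.16), and Hoxb3 was at -0.53 (adjusted p = 0.051) without neonate replicate 2 and at -0.57 (adjusted p = 0.15) without adult replicate 2.

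**Figure D3:**
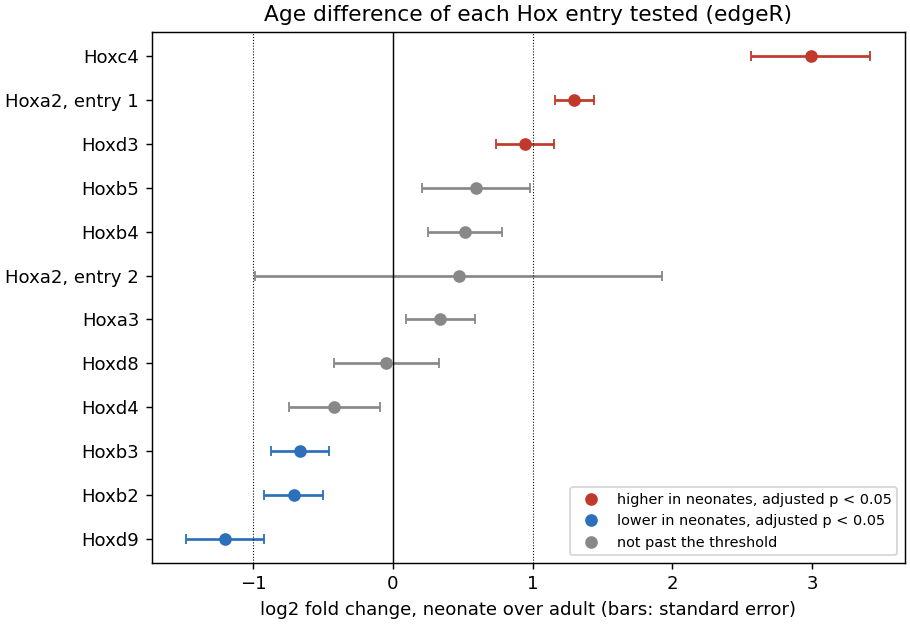
Log2 fold change, neonate over adult, of each of the 12 Hox entries tested in edgeR (point) with its standard error (bar), from 2 libraries per age; red and blue mark entries called higher and called lower in neonates, grey those not past the threshold of 0.05, and dotted lines mark 2-fold. Hoxc4 at 2.99 and Hoxa2 at 1.30 lie to the right of the upper line and Hoxd9 at -1.20 to the left of the lower one, while the bars of the second Hoxa2 entry and of Hoxd8 span 0.

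For the 4 called genes with a RefSeq promoter window, the bases from 250 before to 50 after the annotated start are shown, so that the sequence upstream of the genes that differed most can be read. Capitals mark every match to 3 motifs searched on both strands, namely TGATTNAT (joint site of HOX and PBX proteins), TGACAG (core of the MEIS site) and AGGTCA (half-site of the retinoic acid receptor). The windows lie at chr4:82595643-82595942 on the minus strand (Hoxa2), chr7:136048809-136049108 on the plus strand (Hoxc4), chr3:80045876-80046175 on the plus strand (Hoxd3) and chr3:80007756-80008055 on the plus strand (Hoxd9), all in GRCr8, which is not the assembly of the counts.
Hoxa2: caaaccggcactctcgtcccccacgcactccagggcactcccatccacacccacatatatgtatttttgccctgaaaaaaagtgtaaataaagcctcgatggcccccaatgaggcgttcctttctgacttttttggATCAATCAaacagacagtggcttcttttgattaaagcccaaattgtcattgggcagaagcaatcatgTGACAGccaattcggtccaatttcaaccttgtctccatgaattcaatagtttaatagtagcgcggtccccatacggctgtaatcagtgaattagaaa
Hoxc4: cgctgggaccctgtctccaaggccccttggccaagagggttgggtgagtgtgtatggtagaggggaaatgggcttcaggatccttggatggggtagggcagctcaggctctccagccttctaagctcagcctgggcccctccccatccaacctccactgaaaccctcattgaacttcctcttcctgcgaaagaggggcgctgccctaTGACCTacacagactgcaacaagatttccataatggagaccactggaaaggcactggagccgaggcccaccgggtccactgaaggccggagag
Hoxd3: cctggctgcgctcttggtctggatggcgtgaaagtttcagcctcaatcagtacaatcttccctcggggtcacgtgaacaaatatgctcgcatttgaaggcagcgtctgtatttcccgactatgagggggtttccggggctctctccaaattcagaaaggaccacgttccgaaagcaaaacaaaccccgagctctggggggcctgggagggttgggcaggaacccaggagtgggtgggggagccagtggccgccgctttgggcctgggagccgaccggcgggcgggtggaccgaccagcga
Hoxd9: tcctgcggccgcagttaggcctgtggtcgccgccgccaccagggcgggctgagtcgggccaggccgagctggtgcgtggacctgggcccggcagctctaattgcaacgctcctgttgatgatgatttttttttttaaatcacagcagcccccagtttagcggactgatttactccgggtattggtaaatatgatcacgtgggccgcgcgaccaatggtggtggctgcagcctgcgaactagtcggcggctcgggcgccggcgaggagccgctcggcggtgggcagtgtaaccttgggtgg

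The Hoxa2 window held 1 HOX-PBX match with its first base at position -114 from the start and 1 MEIS match at -47, which do not overlap. The Hoxc4 window held 1 AGGTCA match at -43, and the Hoxd3 and Hoxd9 windows held none of these letters. Of 33469 rat windows of the same length, 3.18% held the HOX-PBX letters, 19% the MEIS core and 16.2% the half-site. Of the 7 tested Hox symbols that matched a window (Hoxa2, Hoxa3, Hoxc4, Hoxd3, Hoxd4, Hoxd8 and Hoxd9), 1, 2 and 2 held them, while a TATA box (TATAAA, on the transcript's strand) and the homeodomain palindrome TAATTA were in none of the 7, against 8.8% and 5.36% of all windows. The tested Hox windows had a median GC content of 60.7% and 19 CG dinucleotides, against 51.7% and 7 over all windows, whereas Hoxa2 had 44.7% and 9 and Hoxc4 had 59% and 6. A match is a description of the letters and not a site of binding.

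The remaining tested members did not pass the test. Hoxa3, the group 3 gene tied to CB formation, stood at 8.13 and 5.62 CPM in neonates and at 5.49 and 5.36 CPM in adults (log2 fold change 0.34 ± 0.25, edgeR adjusted p = 0.26). Its lower neonatal value lay just above the adults. In RefSeq the span of Hoxa3 also overlaps those of Hoxa4, Hoxa5 and Hoxa6, so that its reads are uncertain where counting could divide them. Hoxb4, known from blood stem cells, stood at 5.01 and 6.53 CPM against 3.53 and 4.53 CPM (0.52 ± 0.26, edgeR adjusted p = 0.12). Hoxb5, which acts in neural crest of the gut, overlapped between ages at 2.62 and 1.56 CPM against 1.20 and 1.56 CPM (0.59 ± 0.39, edgeR adjusted p = 0.21).

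Hoxd4, which acts at the border of hindbrain and spinal cord, stood at 1.74 and 1.95 CPM in neonates and at 2.75 and 2.19 CPM in adults (-0.42 ± 0.33, edgeR adjusted p = 0.29). Hoxd8 was at 1.07 and 1.36 CPM against 1.20 and 1.31 CPM and overlapped between ages (-0.05 ± 0.37, edgeR adjusted p = 0.92). Over the 12 tested entries the libraries of the ages did not overlap in 5 that were higher and 4 that were lower in neonates, beside 41.3% and 41.7% of all genes tested. Leaving out neonate replicate 2 took Hoxa3 to 0.60 (adjusted p = 0.038) and Hoxb5 to 0.94 (adjusted p = 0.041), and leaving out neonate replicate 1 took Hoxb4 to 0.71 (adjusted p = 0.038), all by edgeR. For these 3 genes a single neonatal library thus decided whether the threshold was passed.

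Below the filter, Hoxd10, a limb gene next to Hoxd9, had 4 and 2 counts in neonates and 27 and 28 in adults. Its adult level was 8.13 times the neonatal one (95% counting interval 3.51 to 23.1), and without a filter on low counts its log2 fold change was -3.00 ± 0.88 (edgeR adjusted p = 0.020). Hoxd9 and Hoxd10 thus were both higher in both adult libraries, while Hoxd8, on the other side of Hoxd9, was not called. Hoxd13, at the far end of the cluster, had 4 and 6 counts in neonates and 1 and 0 in adults, and Hoxd1, at the other end, had 5 and 3 against 0 and 0. Hoxb7 had between 23 and 40 counts and overlapped between the ages, as did Hoxa4 with between 11 and 17 counts summed over its 2 entries, which held identical values. Also over the floor were Hoxb6 (0 to 7 counts), Hoxb8 (0 to 4) and Hoxc5 (0 to 4), and Hoxb9, Hoxc6 and Hoxc8 did not exceed 3 counts. Apart from Hoxd10, these genes are given by their counts alone.

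Summed over all entries, Hox reads came to 78.7 and 79.6 CPM in neonates and to 59.5 and 60.7 CPM in adults, a 1.32-fold difference. Without Hoxa2 the sums were 48.9 and 45.1 CPM against 47.7 and 45.7 CPM, and they overlapped between the ages. HoxA stood at 38.2 and 40.5 CPM in neonates and at 17.8 and 20.9 CPM in adults, HoxB stood at 21.3 and 20.6 CPM in neonates and 25.9 and 26.4 CPM in adults, and HoxC went from 3.995 and 2.50 CPM to 0.466 and 0.378 CPM. HoxD stood at 15.1 and 16.0 CPM against 15.3 and 13.1 CPM, and its members that rose and fell left the sum overlapping between the ages. HoxA thus gave 48.6% and 50.9% of Hox reads in neonates and 29.9% and 34.4% in adults, and without Hoxa2 it gave 10.8% and 7.55% against 10.1% and 9.66%, which overlap. These sums weight long transcripts more and carry no test.

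Ratios between genes inside a library do not depend on how libraries were scaled. Such ratios were computed for 7 pairs of paralogs, 2 of them with Hoxc4, and for 4 pairs inside a cluster, and how often pairs of other genes separate the ages was not computed. Hoxa2 over Hoxb2 had a log2 ratio of 2.20 and 2.60 in neonates and of 0.08 and 0.78 in adults, a 3.91-fold difference of the ratio. Hoxd3 over Hoxb3 had 0.59 and 0.90 in neonates and -0.60 and -1.15 in adults (3.08-fold), and Hoxa3 over Hoxb3 had 0.31 and 0.01 against -0.70 and -0.96 (1.97-fold). In group 3, then, HoxA and HoxD reads were higher relative to HoxB in both neonatal libraries, and the same held for Hoxa2 in group 2. Inside HoxD, Hoxd9 over Hoxd3 had -2.31 and -2.45 in neonates and -0.30 and -0.15 in adults, so that the ratio was 4.46-fold higher in adults. With 2 libraries against 2, an exact two-sided permutation test of a ratio cannot give less than p = 0.33, the value each of these pairs had, and the pairs share genes. In each pair named here both genes had separated the ages alone, in opposite directions. These ratios therefore had to separate the ages and restate the results of the single genes.

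**Figure D4:**
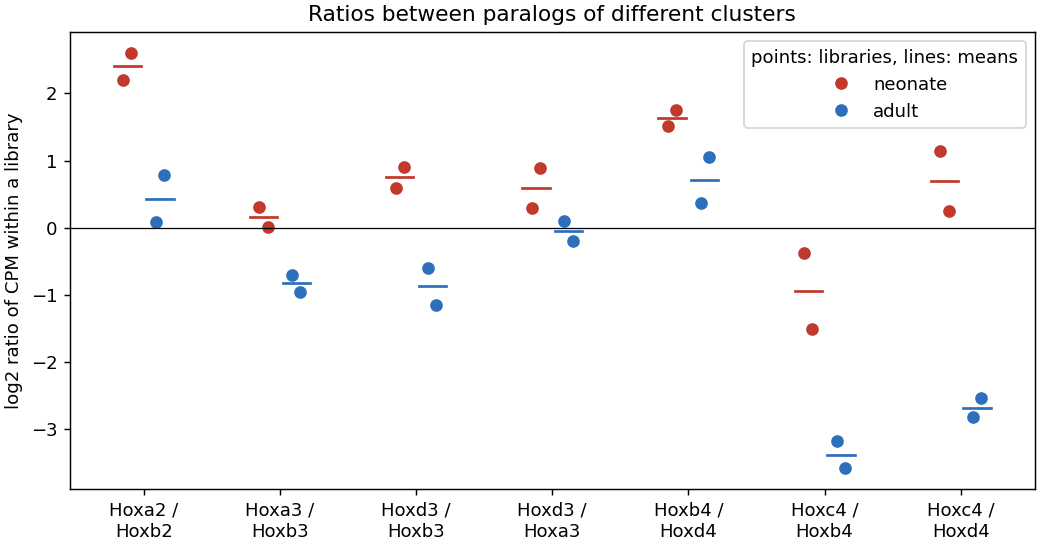
Log2 ratio of CPM between paralogs of different clusters within each library (red neonates, blue adults, lines at the mean of 2 libraries); the position of a ratio relative to 0 also reflects transcript length, so only the distance between ages is to be read. Both pairs with Hoxc4 had to differ, since it passed the filter only through the neonates. In the other 5 pairs drawn both neonatal points lie above both adult points, with Hoxa2 over Hoxb2 at 2.20 and 2.60 against 0.08 and 0.78. Apart from Hoxd3 over Hoxa3, these pairs also had to separate, because each gene alone separated the ages, in opposite directions.

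The TALE cofactors, which bind DNA beside Hox proteins, were all read in the CB. Of the 9, 4 rose in neonates (Meis3, Pbx3, Meis2 and Pbx4), 2 fell (Pknox2 among them) and 3 did not pass the test, none by 2-fold (beside 31.2% and 31.1% of all genes), and their median was 0.24 on the log2 scale against -0.0029 for all genes. The 2 with the most reads, Pbx2 (116 and 125 CPM against 117 and 115) and Meis1 (93.3 and 114 CPM against 93.9 and 81.7), were not called. The called genes given here were named after their values were seen, and among them Meis3 had the largest change, from 70.3 and 66.2 CPM in neonates to 35.6 and 34.2 CPM in adults (0.97 ± 0.09, edgeR adjusted p = 3.7e-05).

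In the retinoic acid pathway 16 of 18 genes were tested, 8 rose in neonates, 5 fell and 3 did not pass, with a median of 0.26, beside 31.2% of all genes called higher and 31.1% called lower. Crabp1 and Crabp2, which carry retinoic acid inside the cell, were at least 2-fold higher in neonates. Crabp2 was at 24.6 and 25.7 CPM in neonates and at 7.60 and 8.13 CPM in adults (1.68 ± 0.13, edgeR adjusted p = 1.3e-05), and Crabp1 at 2.62 and 1.33 CPM against 0.466 and 0.403 CPM (2.18 ± 0.47, edgeR adjusted p = 0.0034). Crabp1 passed the filter only through the neonates, so it had to differ. Aldh1a1, which makes retinoic acid, was at 2.08 and 2.67 CPM in neonates and at 10.5 and 12.8 CPM in adults (-2.29 ± 0.24, edgeR adjusted p = 6e-05). Cyp26b1, which breaks it down, was at 3.69 and 7.23 CPM against 16.0 and 16.1 CPM (-1.56 ± 0.28, edgeR adjusted p = 0.0011). The other 2 Aldh1a enzymes of the list went the other way, with Aldh1a2 at 0.90 ± 0.23 (edgeR adjusted p = 0.0084) and Aldh1a3 at 0.83 ± 0.12 (edgeR adjusted p = 0.00031). Rdh10, another enzyme of synthesis, was lower in neonates as Aldh1a1 was (-0.44 ± 0.10, edgeR adjusted p = 0.0046). Rxra, a receptor, was the third gene lower by at least 2-fold. Other receptors of the list went the other way, with Rara at 0.83, Rxrg at 0.81 and Rxrb at 0.32, each called higher in neonates. Rarb and Rarg were not called. Aldh1a2, Aldh1a3, Rdh10 and the receptors were named after their values were seen.

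Among 24 Polycomb genes, 9 rose in neonates, 6 fell and 9 did not pass, with a median of 0.16, beside 31.2% and 31.1% of all genes. Ezh2, a methyltransferase that marks silent Hox genes, was at 55.5 and 52.9 CPM in neonates and at 18.1 and 19.6 CPM in adults (1.52 ± 0.10, edgeR adjusted p = 5e-06). Ezh1, the other methyltransferase of the list, went the other way, at 52.2 and 55.5 CPM against 97.6 and 88.1 CPM (-0.78 ± 0.09, edgeR adjusted p = 9.9e-05). Ezh1 was named after its values were seen. Phc3, Bmi1 and Jarid2 were the 3 that fell by at least 2-fold, with log2 fold changes of -1.11, -1.04 and -1.03. Ezh2 moved in the direction of the proliferation markers, all 10 of which rose in neonates by at least 2-fold (summed 928 and 806 CPM against 276 and 272 CPM, led by Pcna and Mki67), which is also the direction of Hoxa2, Hoxc4 and Hoxd3, and their part in these results was not tested. Of 13 trithorax genes and H3K27 demethylases, 4 rose, 5 fell and 4 did not pass, with a median of -0.16, beside the same shares of all genes. Kmt2a, which keeps Hox genes active, was at 10.9 and 10.5 CPM in neonates and at 42.2 and 58.1 CPM in adults (-2.23 ± 0.15, edgeR adjusted p = 8e-06), and Kmt2c was at -1.28. The 4 that rose were Dpy30 (0.59), Psip1 (0.35), Men1 (0.32) and Kmt2b (0.31), named after their values were seen.

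**Figure D5:**
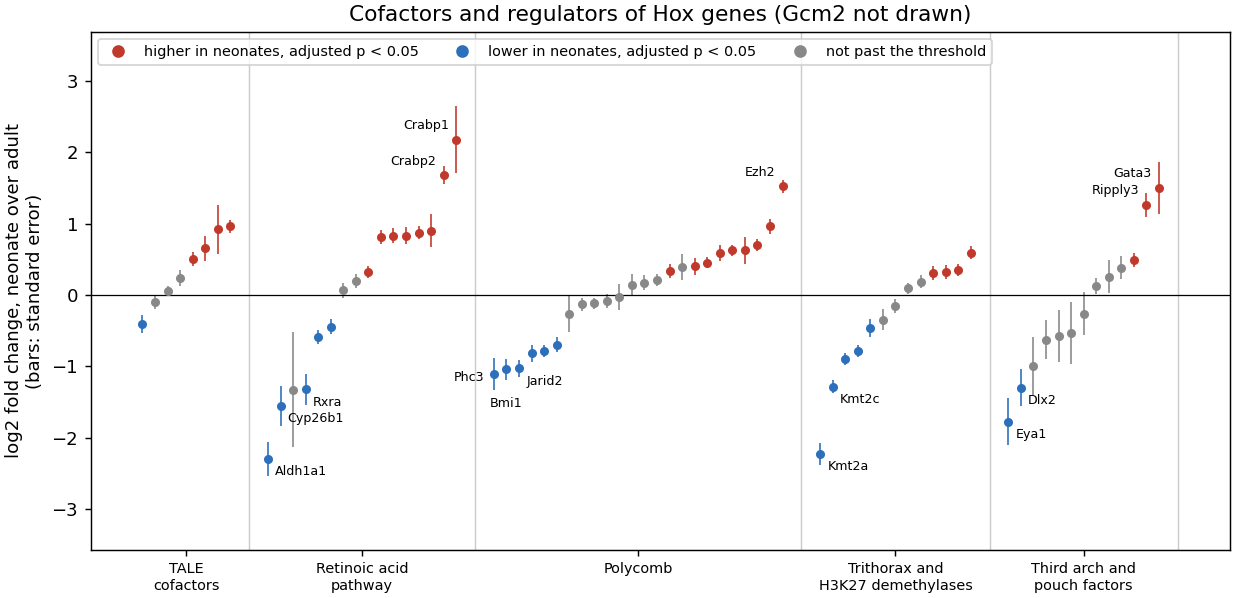
Log2 fold change, neonate over adult, in edgeR (points) with standard error (bars) for tested and reported genes of 5 lists, ordered by value within a list; colours as in the plot of Hox fold changes, with names for genes called at 2-fold or more, and Gcm2, at 0 in adults, left out. The TALE cofactors stay within 1 of the zero line, whereas Crabp1 reaches 2.18 and Aldh1a1 and Kmt2a lie below -2.

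Upstream factors of the hindbrain and arches were mostly not read. Of 9, 2 were tested and neither was called, Egr2 standing between 1.86 and 8.99 CPM, and Gbx2, Otx1 and Otx2 had no counts in any library. Of 19 factors of the third arch and pouch, 14 were tested, 4 rose in neonates, 2 fell and 8 did not pass, beside 31.2% of all genes called higher and 31.1% called lower. Gata3 was at 12.7 and 5.73 CPM against 3.63 and 2.87 CPM (1.51 ± 0.36, edgeR adjusted p = 0.006), Eya1 at 1.35 and 2.45 CPM against 7.28 and 5.77 CPM (-1.78 ± 0.33, edgeR adjusted p = 0.0015) and Dlx2 at 3.60 and 3.50 CPM against 10.5 and 6.95 CPM (-1.30 ± 0.26, edgeR adjusted p = 0.0023). Gcm2, the parathyroid regulator and 1 of the 4 that rose, had 22.1 and 3.03 CPM in neonates and 0 in both adults, so it passed the filter only through the neonates and had to differ.

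Genes around the clusters were tested to see whether the neighbours of the called Hox genes moved too. Of 17 flanking genes with an entry, 14 were tested, 5 rose in neonates, 6 fell and 3 did not pass, none by 2-fold, beside 31.2% and 31.1% of all genes. The 2 with the most reads, Hnrnpa1 (0.71) and Hnrnpa3 (0.45), rose. Smug1, next to Hoxc4 in RefSeq's order, fell by 0.41 on the log2 scale, and Cbx5 and Hnrnpa1, the next 2 genes on that side, rose by 0.39 and 0.71. Mtx2, next to Hoxd1, rose by 0.63, and Evx1 and Evx2, which lie beyond Hoxa13 and Hoxd13, had no counts. Over the 7 lists of related genes 34 rose and 26 fell, against 21 and 35 when scaled by library size alone. Smug1, Cbx5 and Mtx2 were named after their values were seen.

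The libraries carried the markers of the labelled tissue, and markers of other cells differed between the ages as well, the shares below standing beside 31.2% of all genes called higher and 31.1% called lower. Of the 12 glomus cell genes tested 4 rose and 4 fell in neonates (summed 8182 and 6861 CPM against 9395 and 7352 CPM, led by Epas1 and Ddc), with Th, the first enzyme of dopamine synthesis, at 1019 and 836 CPM against 1405 and 1134 CPM. Fibroblast genes fell in neonates for 6 of 9 (13100 and 15640 CPM against 16940 and 18810 CPM, with most reads in Col3a1 and Col1a1, neither of which was called), and smooth muscle and pericyte genes fell for 7 of 10 and rose for 1 (1469 and 1528 CPM against 2372 and 2538 CPM, with most reads in Rgs5, which fell, and Pdgfrb, the 1 that rose), the direction of Hoxb2, Hoxb3 and Hoxd9. The same direction held for most called macrophage genes (6 of 8 lower, 1 higher) and adipocyte genes (3 of 5 tested lower, 1 higher). Most called neuronal genes (5 of 10 tested higher, 1 lower) went in the direction of Hoxa2, Hoxc4 and Hoxd3. Parathyroid genes differed between the 2 neonatal libraries: all 3 summed to 1795 CPM in neonate 1 and 211 CPM in neonate 2, against 0.025 and 0.050 CPM in adults, with Pth at 1771, 208, 0 and 0 CPM. Hoxa3, Hoxb2, Hoxb3, Hoxb5, Hoxc4 and Hoxd9 were also higher in neonate 1 than in neonate 2, whereas the main entry of Hoxa2, Hoxb4, Hoxd3, Hoxd4 and Hoxd8 were not. The former differences ran from 71 against 69 counts for Hoxd9 to 93 against 56 counts for Hoxb5. Both neonatal libraries held Pth reads and neither adult library did, so parathyroid reads and age cannot be told apart here. With the same genes tested, Hoxc4 was at 2.58 without neonate replicate 1 and at 3.32 without neonate replicate 2 (edgeR adjusted p = 0.00045 and 3.4e-05). Sustentacular and Schwann genes were lower in neonate 1 (1624 CPM) than in neonate 2 (2983 CPM) and the adults (2583 and 2785 CPM), with 3 of 10 higher and 3 lower. Fabp7, among the 3 higher, passed the filter only through the neonates, so it had to differ. The part of any of these cell types in the Hox values was not tested.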

How the data were processed

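RNA of pooled CBs was sequenced, and the values deposited by the authors were estimated counts of genes, made with STAR and with Salmon 1.5.2 on Rnor_6.0, per the submitters' processing notes and the paper's methods, neither normalized nor filtered. Whether counting used strand is not given in the sources used here. Fractional counts occurred in 2805 of 32883 entries (tolerance 1e-06), and all were rounded. Genes annotated by symbol as other than protein-coding (636) were removed. The test was edgeR 4.0.16 (quasi-likelihood, TMM, no covariates, R 4.3.3) over 13843 genes that reached 1 CPM in 2 or more libraries, without regard to Hox membership. TMM factors were 0.902, 0.935, 1.08 and 1.1. Alternatives were DESeq2 1.42.0, limma-voom (limma 3.58.1), RLE factors, library size alone, no filter, a mean of 5 CPM or more, TMM computed without ribosomal protein and mitochondrially encoded genes, every biotype kept, an unadjusted p, a replicate block and each library left out. Summed duplicate entries, and leaving out a neonatal library with the same genes tested, were added after seeing the data.

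Every Hox gene over the filter is named, those under it by counts, and from each related list up to 4 genes called at 2-fold, or else the 2 with the most reads. The Hox genes and lists were chosen with earlier results of these data known. Parathyroid, proliferation and other marker lists are given by counts and sums. Promoter windows are RefSeq's for GRCr8, 300 bases each, and matched 19 of 37 symbols by name, with no window for Hoxb2 to Hoxb5. The procedure was tested on simulated data. Some genes are counted in their lists but not reported here by name.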

Additional observations from a re-analysis of the deposited data

How the results depend on the processing

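Over 180 comparisons of a Hox entry's log2 fold change under an alternative, 167 kept direction and side of the threshold, 3 lost the call (Hoxb2 and Hoxb3, as given), 6 gained it (Hoxa3, Hoxb4 and Hoxb5) and 4 turned, both entries affected being uncalled. The second Hoxa2 entry ranged from -7.94 to 1.49 and Hoxd8 from -0.21 to 0.13 (from -0.22 with the same genes tested) when 1 library was left out, with -0.56 for the former without adult replicate 1 and 0.12 for the latter without neonate replicate 1 and with the same genes tested. With 1 library left out, where the lone library of an age was assumed to vary like the other age, Hox entries called higher ran from 3 to 5 and lower from 2 to 3, and at 2-fold from 1 to 3, with lower unchanged at 1. The value of 1 higher came without either neonatal library, because Hoxc4 then failed the filter, and the 5 came without neonate replicate 2 with the same genes tested. For all genes the ranges were 3283 to 4200 and 3195 to 4166, at 2-fold 933 to 1169 and 1325 to 1911, and for related genes 27 to 36 and 23 to 26, at 2-fold 5 to 8 and 8 to 11. A mean of at least 5 CPM left 1 Hox entry higher and 0 lower at 2-fold (all genes 656 and 1168), since Hoxc4 and Hoxd9 were no longer tested, and no filter gave 2 lower, adding Hoxd10. Library size alone moved the median of all genes from -0.0029 to -0.248, the calls over all genes to 2588 higher and 5997 lower, the 2-fold higher from 1063 to 705, related genes higher from 34 to 21 and 2-fold lower from 10 to 16, and the summed Hox log2 difference from 0.40 to 0.15 (0.38 to 0.41 with 1 library left out), but changed no Hox call. With a replicate block, 3 Hox entries were higher and 3 lower, 2 and 1 at 2-fold, and no Hox call changed; the labels name no shared batch, and deviations of same-numbered libraries correlated at -0.015 over genes.

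Limits are the 2 libraries per age, the counts of at most 40 of the 9 symbols under the filter, HoxA copies that share reads, and spans that overlap inside HoxA and HoxC. Parathyroid reads, found in both neonatal libraries and nearly absent from the adults, are a further limit, since they cannot be told apart from age. Sustentacular and Schwann genes also differed between the neonatal libraries.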

Other observations

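Markers of further cell types had these values. All counts of higher and lower genes in this section stand beside 31.2% of all genes tested called higher and 31.1% called lower. Endothelial genes summed to 1889 and 1887 CPM in neonates and to 2057 and 1905 CPM in adults, with 1 of 9 higher and 3 lower, led by Eng and Plvap. Macrophage genes summed to 133 and 147 CPM against 210 and 214 CPM, with 1 of 8 higher and 6 lower, led by Lyve1 and Csf1r. Neuronal genes summed to 2138 and 1995 CPM against 1735 and 1504 CPM, with 5 of 10 tested higher and 1 lower, led by Snap25 and Prph. Adipocyte genes summed to 140 and 187 CPM against 119 and 165 CPM, with 1 of 5 tested higher and 3 lower, led by Fabp4 and Plin1. Cidec, among the 3 lower, passed the filter only through the adults, so it had to differ.

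Cartilage genes summed to 21.5 and 28.2 CPM in neonates and to 7.70 and 9.47 CPM in adults, led by Col2a1 and Sox9, with 1 of 4 tested higher and 1 lower and Matn1 at 0. Acan, the 1 lower, passed the filter only through the adults, so it had to differ. Skeletal muscle genes summed to 24.1 and 29.0 CPM against 47.9 and 52.2 CPM, led by Myh3 and Tnnt3, with 1 of 4 tested lower, and Myod1, Pax7 and Myh8 had no counts. Thyroid genes stayed between 1.21 and 2.21 CPM in sum, led by Tshr and Tg, with 1 tested and not called. Genes of thymus and lymphocytes stayed between 3.71 and 8.68 CPM in sum, led by Cd4 and Cd79a, with 1 of 2 tested higher and 1 lower and Foxn1 at 0. Cd79a passed the filter only through the neonates and Cd4 only through the adults, so both had to differ.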
